A study of Mus musculus with 16 samples.

Results

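The genes described here carry glucose from uptake to its storage or entry into the mitochondrion: 38 genes, chosen by symbol as a list of the pathway's genes and matched by Ensembl identifier to 38 of the 55487 rows of the count table. They comprised 2 genes of uptake, 21 of glycolysis, 6 of pyruvate entry into the mitochondrion and its control, 3 of the pentose branch and 6 of glycogen. All 38 were among the 18275 genes that passed the filter on low counts of the series.

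The adult heart takes most of its energy from fatty acids and the rest from glucose, lactate and ketones. Glucose crosses the membrane through GLUT1 (Slc2a1) and the insulin-responsive GLUT4 (Slc2a4), is trapped by hexokinase and then enters glycolysis, glycogen or the pentose branch. Many steps have a muscle or heart form and a form that most cells use, encoded by separate genes, and a shift from fatty acids towards glucose under pressure overload is a well known feature of cardiac hypertrophy.

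The series measured poly(A) RNA from the apex of the heart in 16 male mice, 4 in each of 4 groups, 4 weeks after surgery, and asked which pathways CARDINAL affects in the stressed heart. CARDINAL (mouse gene Gm12295) is a long noncoding RNA, deleted with CRISPR/Cas9, and the labels name no tissue or cell type to which the deletion is limited. The groups were Ctrl sham (wild type, chest opened without a ligature), KO sham (CARDINAL knockout, the same operation), Ctrl TAC (wild type, transverse aortic constriction, a ligature on the aorta that loads the left ventricle with pressure) and KO TAC (CARDINAL knockout, transverse aortic constriction). Each library came from 1 animal, and the p-values measure the spread between these animals.

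Library totals ran from 53169437 to 79404714 counts. CARDINAL stood at 3.69, 3.86, 3.24 and 3.38 CPM in Ctrl sham, at 0.553, 0.297, 0.465 and 0.545 in KO sham, at 8.02, 2.69, 3.04 and 3.37 in Ctrl TAC and at 0.371, 0.276, 0.368 and 4.55 in KO TAC, where CPM is the count scaled to a common library total. The library labelled KO TAC 4 thus had the CARDINAL level of a control, and values or counts without it are given beside the results that rest on it. Animal numbers in the labels started with 25 for Ctrl TAC 2, 3 and 4 and for the library labelled KO TAC 4, and with 33 for Ctrl sham 4 and KO sham 1, 2 and 3; what the series of numbers stand for is not given in the sources used here. Ctrl TAC 2 had the highest summed level of adipocyte markers (3.33 CPM, against at most 0.875 CPM elsewhere) and of fast skeletal muscle markers (5.74 CPM, against at most 2.3 CPM).

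Together the 38 genes took between 1.29% and 1.49% of all counts in a library. Per kilobase of exon, the most abundant over all 16 libraries were Aldoa, muscle aldolase, at 665 CPM per kilobase, Ldhb, the heart form of lactate dehydrogenase, at 588, Eno3, muscle enolase, at 524, Pgam2, muscle phosphoglycerate mutase, at 461, and Gapdh at 340.3. Pygm, muscle glycogen phosphorylase, and Pfkm, muscle phosphofructokinase, followed at 298 and 245 CPM per kilobase. Eno3, Pgam2 and Pfkm lay far above their widely expressed counterparts Eno1 at 26.5, Pgam1 at 25.9 and Pfkp at 5.31 CPM per kilobase, whereas Pygb, the brain phosphorylase, ran from 0.47 to 0.784 of the Pygm level over the libraries. The lowest were Pdk3 at 0.721 and Aldoc, brain aldolase, at 0.137 CPM per kilobase. The GLUT4 gene Slc2a4 (83.4) lay well above the GLUT1 gene Slc2a1 (4.66). These levels divide by all annotated exon bases of a gene, 840 for Pgam2, 4133 for Gapdh and 13401 for Pfkp, and their order depends on that length. In CPM not divided by length, Gapdh lay above Pgam2 in every library.

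The first question was how pressure overload changed these genes in hearts with CARDINAL. Between Ctrl TAC and Ctrl sham, 17 of the 38 genes passed an adjusted p of 0.05 (edgeR quasi-likelihood test, adjusted over all 18275 genes), 7 higher and 10 lower, or 44.7% of them beside 20.0% of all genes tested (10.4% higher and 9.60% lower). In the knockout hearts 23 of 38 passed, 12 higher and 11 lower, or 60.5% beside 34.3% of all genes (17.8% higher and 16.5% lower). The median log2 change of the 38 was near 0 in both, 0.04 in Ctrl and 0.02 in KO, beside 0.0043 and -0.0039 for all genes. The median size of the change without its sign was 0.19 in Ctrl and 0.29 in KO for the 38 genes, beside 0.18 and 0.23 for all genes. In bulk tissue, fewer cells of a type and less RNA per cell cannot be told apart.

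The balance of rises and falls depended on scaling. With library totals alone and no scaling factor, the median of all genes rose by 0.11 in Ctrl and 0.16 in KO on the log2 scale. In that fit 18 of the 38 genes passed in Ctrl (12 higher, 6 lower) and 26 in KO (18 higher, 8 lower). The calls over all genes rose as well, from 3652 to 4335 in Ctrl and from 6271 to 7390 in KO. Changes are given here relative to the scaling by trimmed mean of M-values (TMM), in which the median gene stayed in place.

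The 2 comparisons share no library. Of the 17 genes called in Ctrl, 15 (88.2%) were also called in KO, and of the 23 called in KO, 65.2% were called in Ctrl, each of the 15 in the same direction. Pfkp, Hk1, Gapdh, Pgam1, Pgd and Ugp2 rose in both genotypes, and Slc2a4, Pfkm, Pfkfb1, Eno3, Pkm, Ldhb, Mpc2, Pdk2 and Pygm fell in both. The fitted change was larger in KO for 14 of the 15, Pgam1 being the exception. Over all genes the median size of the change was larger in KO as well, 0.23 against 0.18 in Ctrl. The shares of all genes for the shared calls and for the 14 of 15 are not given here. Neither is therefore read as particular to these genes. Pgam2 and Tkt were called in Ctrl alone and Eno1, Gyg, Hk2, Ldha, Mpc1, Pdk3, Pfkfb3 and Pgk1 in KO alone. Called in neither were 13 genes, namely Slc2a1, Gpi1, Pfkl, Pfkfb2, Aldoa, Aldoc, Tpi1, Pdk1, Pdk4, G6pdx, Gys1, Gbe1 and Pygb. Without the library labelled KO TAC 4, 23 genes passed in KO, 21 of them shared with the fit of all libraries, with Mpc1 lost (adjusted p = 0.111), as was Pgam1 (0.0743), and with Gpi1 (0.0308) and G6pdx (0.0492) gained. In that fit the log2 changes of the 23 genes called with all libraries moved by at most 0.13, in Pfkfb1, none changed sign, and the change was again larger in KO for 14 of the 15. Without Ctrl TAC 2, 18 passed in Ctrl, 16 of them shared, with Mpc2 lost (adjusted p = 0.127) and Gyg and Pdk3 gained (0.00827 and 0.047). The calls of Gapdh, Pkm, Mpc2, Pgd, Tkt and Ugp2 in Ctrl and of Pfkfb3, Pgk1, Pgam1, Ldha and Mpc1 in KO were lost when certain single libraries were left out.

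**Figure D1:**
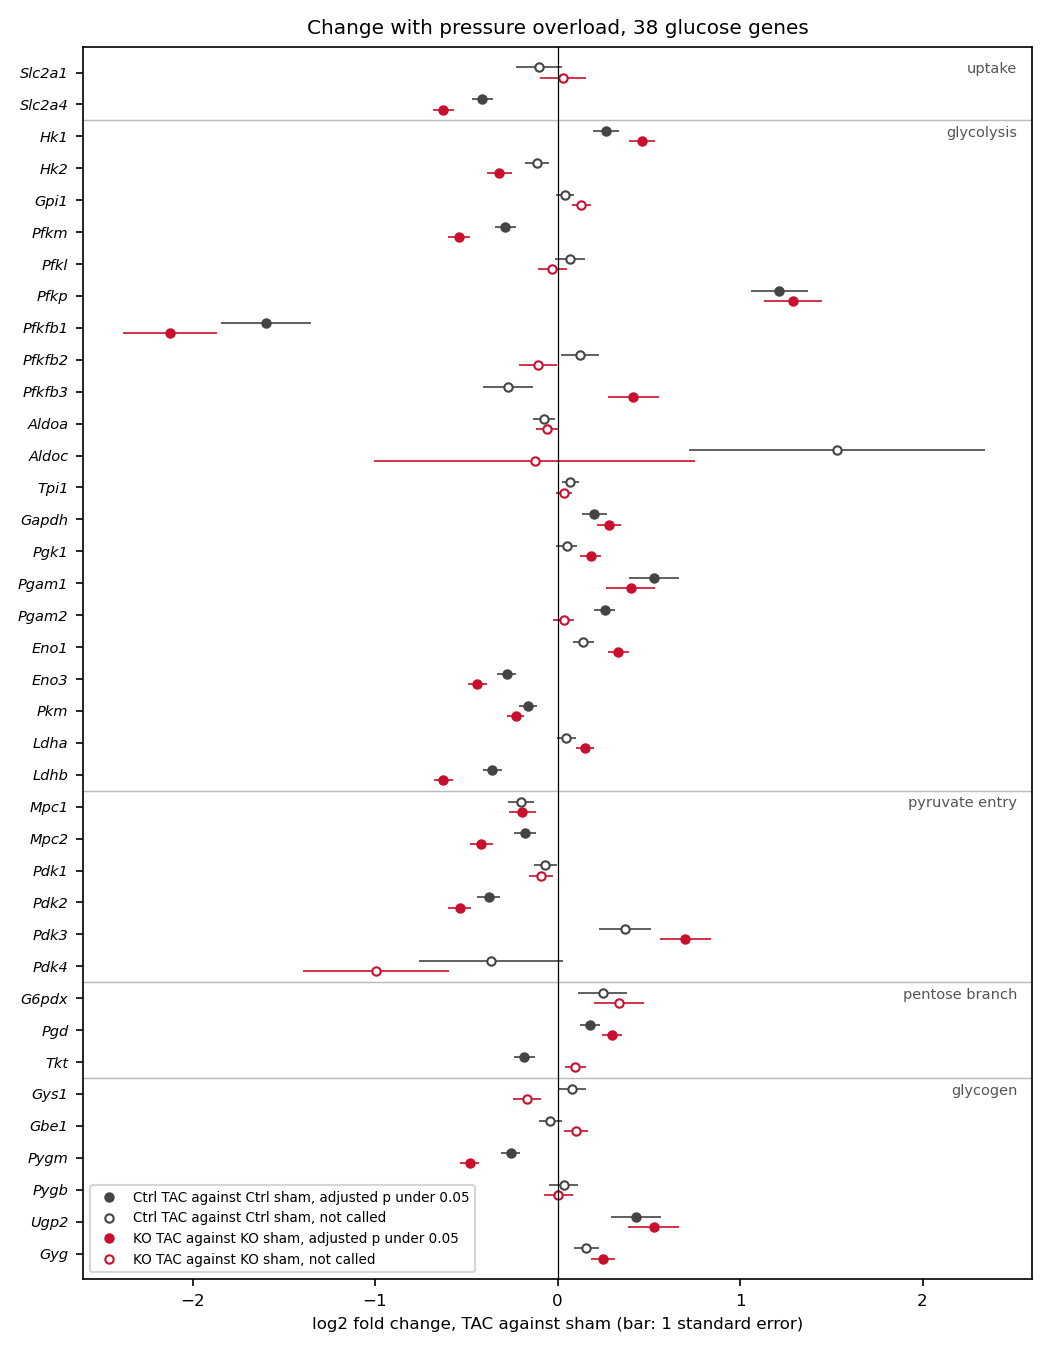
Log2 fold change of TAC against sham for each of the 38 genes, grouped by step, in Ctrl (grey) and KO (red) hearts, with bars of 1 standard error and filled points where the adjusted p was under 0.05. Filled points lie on both sides of 0 in glycolysis, the widest at Pfkp on the right and Pfkfb1 on the left.

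At the entry step the 2 transporters parted. Slc2a4 (ENSMUSG00000018566, chr11:69942539-69948188, minus strand, GRCm38) read 369, 332, 343 and 331 CPM in Ctrl sham, 356, 349.9, 322 and 326 in KO sham, 242, 282, 265 and 245 in Ctrl TAC and 229, 206, 219.5 and 223 in KO TAC. Every TAC library lay below every sham library. The log2 fold change was -0.41 ± 0.06 (SE, adjusted p = 5.92e-05) in Ctrl and -0.63 ± 0.06 (SE, adjusted p = 2.1e-07) in KO. Slc2a1, the transporter that works without insulin, read 15.6, 17.1, 17.5 and 16.8 CPM in Ctrl sham, 18.3, 16.8, 14.7 and 15.6 in KO sham, 20.7, 16.7, 12.3 and 12.7 in Ctrl TAC and 17.2, 16.5, 17.6 and 15.6 in KO TAC. Its groups overlapped in both genotypes, with log2 changes of -0.10 ± 0.13 and 0.03 ± 0.13 and adjusted p of 0.632 and 0.875, and Ctrl TAC 1 stood above the other libraries of its group.

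Hexokinase phosphorylates glucose once it is inside the cell. Hk1, the widely expressed form, rose by a log2 change of 0.27 ± 0.07 (SE, adjusted p = 0.013) in Ctrl, a call lost with a term for the animal numbers starting with 25, and 0.46 ± 0.07 (SE, adjusted p = 7.06e-05) in KO. Hk2, the insulin-regulated muscle form, read 323, 317, 309.8 and 334 CPM in Ctrl sham, 318, 327, 332 and 294 in KO sham, 332, 306, 277 and 273 in Ctrl TAC and 236, 238, 277 and 268 in KO TAC. The KO TAC libraries all lay below the KO sham libraries, with a log2 change of -0.32 ± 0.07 (SE, adjusted p = 0.00117), whereas the Ctrl groups overlapped, with -0.11 ± 0.07 (SE, adjusted p = 0.274). The fall of Hk2 in KO did not pass without the scaling factor or with a term for the animal numbers that start with 33.

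Phosphofructokinase, the committed step of glycolysis, showed a contrast between forms. Pfkp, the platelet form (ENSMUSG00000021196, chr13:6579768-6648777, minus strand), read 40.1, 38.9, 41.6 and 41.6 CPM in Ctrl sham, 45.2, 40.1, 50.2 and 38.1 in KO sham, 136, 74.9, 72.8 and 93.3 in Ctrl TAC and 103, 100.5, 114 and 108 in KO TAC. All TAC libraries were above all sham libraries, with Ctrl TAC 1 highest. The log2 change was 1.22 ± 0.16 (SE, adjusted p = 7.93e-05) in Ctrl and 1.29 ± 0.16 (SE, adjusted p = 1.7e-05) in KO. Of the gene's 13401 exon bases, 748 are shared with Pitrm1 on the other strand, and whether the counts kept strands apart is not given in the sources used here. The same limit holds for other members, among them G6pdx (418 of 3080 bases shared with Ikbkg) and Pfkfb1 (123 of 4017 with Apex2).

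Pfkm, the muscle form (ENSMUSG00000033065, chr15:98092589-98132451, plus strand), went the other way. It read 1001, 913, 919.6 and 922 CPM in Ctrl sham, 961, 944, 846 and 948 in KO sham, 745, 854, 769.9 and 711 in Ctrl TAC and 652, 622, 650.3 and 619.7 in KO TAC. Each TAC library lay below each sham library of its genotype, with -0.29 ± 0.06 (SE, adjusted p = 0.00175) in Ctrl and -0.54 ± 0.06 (SE, adjusted p = 1.32e-06) in KO. Pfkl, the liver form, did not pass in either (0.07 and -0.03, adjusted p 0.609 and 0.823).

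The widest fall was in Pfkfb1 (ENSMUSG00000025271, chrX:150588229-150643878, plus strand), a bifunctional enzyme that makes and breaks the sugar phosphate that activates phosphofructokinase. Its level was 26.8, 17.5, 22.1 and 18.4 CPM in Ctrl sham, 18.8, 17.6, 13.1 and 24.7 in KO sham, 3.8, 7.66, 9.49 and 7.09 in Ctrl TAC and 4.04, 3.87, 3.76 and 5.3 in KO TAC. The TAC and sham libraries did not overlap in either genotype, and the log2 change was -1.60 ± 0.25 (SE, adjusted p = 0.000393) in Ctrl and -2.12 ± 0.26 (SE, adjusted p = 1.82e-05) in KO. Of its relatives, Pfkfb2, the heart form, did not pass in either genotype, and Pfkfb3, the inducible form, passed in KO alone at 0.42 ± 0.14 (SE, adjusted p = 0.0291) with -0.27 ± 0.14 in Ctrl (adjusted p = 0.195). Pfkfb3 ranged from 11.2 to 15.3 CPM in Ctrl sham, 6.89 to 11 in KO sham, 8.99 to 11.9 in Ctrl TAC and 9.57 to 13.2 in KO TAC. No KO TAC library thus stood above the Ctrl sham range.

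Of the later part of the pathway, where triose phosphates become pyruvate, the changes were smaller. Gapdh, often used as a reference gene, read 1397, 1192, 1234 and 1264 CPM in Ctrl sham, 1417, 1290.0, 1294 and 1220.2 in KO sham, 1633, 1409.7, 1357 and 1451 in Ctrl TAC and 1708, 1602, 1556 and 1479 in KO TAC. The log2 change was 0.20 ± 0.07 (SE, adjusted p = 0.042) in Ctrl, where the groups overlapped, and 0.28 ± 0.07 (SE, adjusted p = 0.00327) in KO, where they did not. The call in Ctrl was lost without Ctrl TAC 1, among other fits, and a pseudogene copy, Gapdh-ps15, held a further 2771 to 4642 counts a library, or 3.98% of the Gapdh counts in all. Copies of other members also held counts: Pgam1-ps2 came to 7.07% of the Pgam1 counts, Pgk1-rs7 to 3.58% of Pgk1 and Eno1b to 2.09% of Eno1. Pgam1 rose in both (0.53 and 0.40, adjusted p 0.0119 and 0.0318), although in KO the groups overlapped. Pgam2, its muscle counterpart, rose in Ctrl by 0.26 ± 0.06 (SE, adjusted p = 0.00403) and read 0.03 ± 0.06 in KO (adjusted p = 0.695). Pgk1 passed in KO at 0.18 ± 0.06 (SE, adjusted p = 0.0224).

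Enolase split by form as hexokinase and phosphofructokinase did. Eno3, the muscle form, fell by log2 changes of -0.28 ± 0.05 (SE, adjusted p = 0.00107) in Ctrl and -0.44 ± 0.05 (SE, adjusted p = 4.84e-06) in KO. Eno1, the form most cells use (ENSMUSG00000063524, chr4:150236721-150248879, plus strand), read 132, 123, 127 and 131 CPM in Ctrl sham, 140.0, 133, 131 and 125 in KO sham, 147, 140.5, 129 and 151 in Ctrl TAC and 160.0, 169, 179 and 160.0 in KO TAC. The sham and TAC libraries overlapped in Ctrl, with 0.14 ± 0.06 (SE, adjusted p = 0.0785), and were apart in KO, with 0.33 ± 0.06 (SE, adjusted p = 0.000126). Pkm, pyruvate kinase, fell in both (-0.16 and -0.23, adjusted p 0.023 and 0.00112), a call lost in both genotypes without the scaling factor (-0.05 and -0.07, adjusted p 0.523 and 0.354). With the term for animal numbers starting with 25, a series that held 3 of the 4 Ctrl TAC animals and no sham animal, the change of Pkm in Ctrl was -0.096 and did not pass (adjusted p = 0.343).

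Lactate dehydrogenase interconverts pyruvate and lactate, and its heart subunit is encoded by Ldhb (ENSMUSG00000030246, chr6:142490249-142507957, minus strand). Ldhb read 1142, 1063, 995 and 1061 CPM in Ctrl sham, 1074, 1096, 1058 and 1129 in KO sham, 842, 843, 844 and 797 in Ctrl TAC and 718, 746, 647 and 713 in KO TAC. No TAC library reached the level of a sham library, and the log2 change was -0.36 ± 0.05 (SE, adjusted p = 9.22e-05) in Ctrl and -0.62 ± 0.05 (SE, adjusted p = 7.79e-08) in KO. Ldha, the muscle subunit, common in most glycolytic tissues, had log2 changes of 0.05 ± 0.05 (SE, adjusted p = 0.566) in Ctrl and 0.15 ± 0.05 (SE, adjusted p = 0.0282) in KO, with overlapping groups in both. Without the library labelled KO TAC 4 the KO groups of Ldha were apart.

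Pyruvate reaches the mitochondrial matrix through the carrier formed by Mpc1 and Mpc2, and pyruvate dehydrogenase kinases (Pdk) then hold back its conversion to acetyl-CoA. Mpc2 fell by -0.18 ± 0.06 (SE, adjusted p = 0.0465) in Ctrl and -0.42 ± 0.06 (SE, adjusted p = 3.93e-05) in KO. The call in Ctrl was lost with the term for animal numbers starting with 25 (-0.12, adjusted p = 0.377) and without the scaling factor (-0.073, adjusted p = 0.362). Mpc1 passed in KO alone at -0.19 ± 0.07 (SE, adjusted p = 0.0477), not when the library labelled KO TAC 4 was left out. Pdk2, the most steadily lowered kinase, read 351, 352, 326 and 352 CPM in Ctrl sham, 351, 343, 323 and 355 in KO sham, 269.7, 293, 256 and 243 in Ctrl TAC and 263, 231, 229 and 222 in KO TAC. Its TAC libraries lay below its sham libraries in both genotypes, with -0.38 ± 0.06 (SE, adjusted p = 0.000255) and -0.54 ± 0.06 (SE, adjusted p = 2.69e-06). Pdk3, a low-abundance kinase, read 1.6, 1.39, 1.54 and 1.21 CPM in Ctrl sham, 1.52, 1.87, 1.41 and 1.42 in KO sham, 1.85, 1.6, 2.01 and 1.99 in Ctrl TAC and 2.72, 2.32, 2.81 and 2.28 in KO TAC. It was above the sham range in every KO TAC library, with 0.70 ± 0.14 (SE, adjusted p = 0.000757), and overlapped in Ctrl, with 0.37 ± 0.14 (SE, adjusted p = 0.0758).

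Pdk4, which fasting and fatty acids induce, varied widely between animals of 1 group. It read 319.6, 208, 238 and 93.8 CPM in Ctrl sham, 155, 209, 161 and 441 in KO sham, 111, 187, 193 and 177 in Ctrl TAC and 169, 109, 105 and 103 in KO TAC. KO sham 4 was the highest library, Ctrl sham 4 the lowest, and the TAC and sham groups overlapped. The log2 changes of -0.36 ± 0.40 and -0.99 ± 0.40 did not pass (adjusted p 0.583 and 0.0746).

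In the pentose branch, which makes NADPH and ribose phosphate, Pgd, phosphogluconate dehydrogenase, read 24.8, 23.7, 25.3 and 24.8 CPM in Ctrl sham, 24.4, 22.8, 23.2 and 21.6 in KO sham, 28.8, 28.2, 26 and 28.5 in Ctrl TAC and 28.2, 28.1, 30.3 and 26.8 in KO TAC. The TAC libraries were above the sham libraries in both genotypes, by 0.18 ± 0.05 (SE, adjusted p = 0.0242) and 0.30 ± 0.05 (SE, adjusted p = 0.000268). Tkt, transketolase, read 16.5, 16.7, 17.3 and 17.2 CPM in Ctrl sham, 16.7, 15.8, 15.7 and 15.8 in KO sham, 15.6, 15.4, 13.6 and 15.2 in Ctrl TAC and 17.4, 17.8, 17.6 and 15.7 in KO TAC. It fell in Ctrl by -0.18 ± 0.06 (SE, adjusted p = 0.0344) with no overlap and was 0.10 ± 0.06 in KO (adjusted p = 0.209), where the groups overlapped. Without the library labelled KO TAC 4 the KO groups of Tkt were apart. With the term for animal numbers starting with 25 the Tkt change in Ctrl was -0.088 (adjusted p = 0.481), and without the scaling factor it was -0.073 in Ctrl (adjusted p = 0.512) and 0.26 in KO, where it then passed (adjusted p = 0.00781). G6pdx, which opens the branch, did not pass in either (0.25 and 0.34, adjusted p 0.221 and 0.0621).

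Glycogen genes moved in both directions. Ugp2, which makes the UDP-glucose that glycogen is built from, read 241, 207, 229.9 and 260.3 CPM in Ctrl sham, 245, 260.5, 288 and 222 in KO sham, 430.2, 242, 286 and 306 in Ctrl TAC and 406, 367, 355 and 335 in KO TAC. Its level was highest in Ctrl TAC 1, and the log2 change was 0.43 ± 0.14 (SE, adjusted p = 0.0395) in Ctrl, where Ctrl TAC 2 lay within the sham range, and 0.53 ± 0.14 (SE, adjusted p = 0.00798) in KO, where all TAC libraries were above all sham libraries. Gyg, glycogenin, the primer protein, passed in KO at 0.25 ± 0.07 (SE, adjusted p = 0.00785). Gys1, the synthase, and Gbe1, the branching enzyme, did not pass in either genotype. Pygm, muscle phosphorylase (ENSMUSG00000032648, chr19:6384399-6398459, plus strand), which releases glucose units from glycogen, read 1163, 1048, 1101 and 1077 CPM in Ctrl sham, 1092, 1060.0, 1029 and 1068 in KO sham, 934, 1009, 873 and 856 in Ctrl TAC and 780.4, 759.7, 769 and 734 in KO TAC. It fell with no overlap in both, by -0.26 ± 0.05 (SE, adjusted p = 0.00195) in Ctrl and -0.48 ± 0.05 (SE, adjusted p = 1.72e-06) in KO, the first of these calls being lost without the scaling factor. Pygb, the brain form, read 0.03 ± 0.08 in Ctrl and 0.01 ± 0.08 in KO (adjusted p 0.823 and 0.969).

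**Figure D2:**
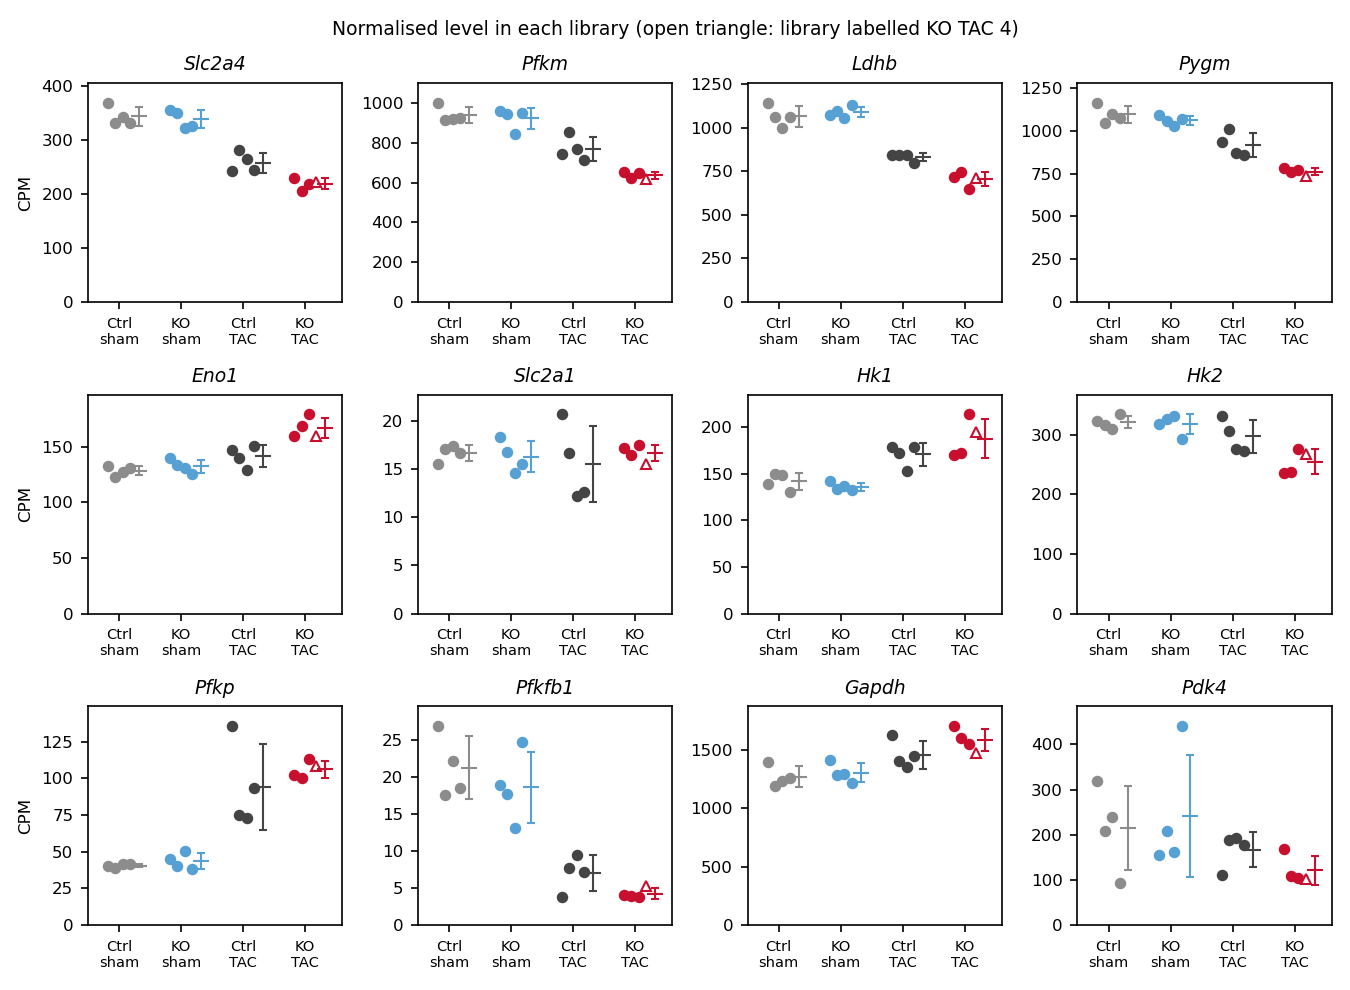
Level of 12 genes in each library in CPM, by group, with the group mean and SD beside the points. The open triangle is the library labelled KO TAC 4. Slc2a4, Pfkm, Ldhb and Pygm step down from the sham groups to Ctrl TAC and lie lowest in KO TAC, and Pfkp steps up in both TAC groups.

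Since both forms of an enzyme are counted in the same library, their ratio per kilobase does not depend on scaling between libraries. No test was run on the ratios, and the pairs were chosen with the gene changes known. Hk1 over Hk2 was 0.272 to 0.335 in Ctrl sham, 0.287 to 0.315 in KO sham, 0.377 to 0.458 in Ctrl TAC and 0.502 to 0.54 in KO TAC. Eno1 over Eno3 was 0.0382 to 0.0432 in Ctrl sham, 0.0411 to 0.0452 in KO sham, 0.0482 to 0.0614 in Ctrl TAC and 0.0704 to 0.0776 in KO TAC, and Ldha over Ldhb 0.19 to 0.206 in Ctrl sham, 0.183 to 0.203 in KO sham, 0.257 to 0.272 in Ctrl TAC and 0.3 to 0.391 in KO TAC. In these 3 pairs of the 10 compared the TAC and sham groups were apart in both genotypes, and every KO TAC library was above every Ctrl TAC library. Without the library labelled KO TAC 4, which set the lower end for the Eno and Ldh pairs in KO TAC, each of the 10 pairs overlapped or stood apart in the same comparisons as with it.

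Pfkp over Pfkm was 0.00999 to 0.0113 in Ctrl sham, 0.01 to 0.0148 in KO sham, 0.0219 to 0.0454 in Ctrl TAC and 0.0392 to 0.0436 in KO TAC, apart between TAC and sham in both genotypes and overlapping between the TAC groups, in which Ctrl TAC 1 was highest. Pygb over Pygm and Slc2a1 over Slc2a4 were apart only between KO TAC and KO sham, and Pgam1 over Pgam2, Aldoc over Aldoa and Pdk4 over Pdk2 overlapped in every comparison. Pfkl over Pfkm was apart and overlapped in the same comparisons as Pfkp over Pfkm, although Pfkl itself did not pass. It was 0.0597 to 0.069 in Ctrl sham, 0.0628 to 0.0744 in KO sham, 0.0693 to 0.0988 in Ctrl TAC and 0.0887 to 0.101 in KO TAC. The Ctrl groups of this pair were thus only narrowly apart, and KO TAC 3 was highest. The muscle or heart form made up the larger part in all libraries for the hexokinase, phosphofructokinase, enolase and lactate dehydrogenase pairs.

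**Figure D3:**
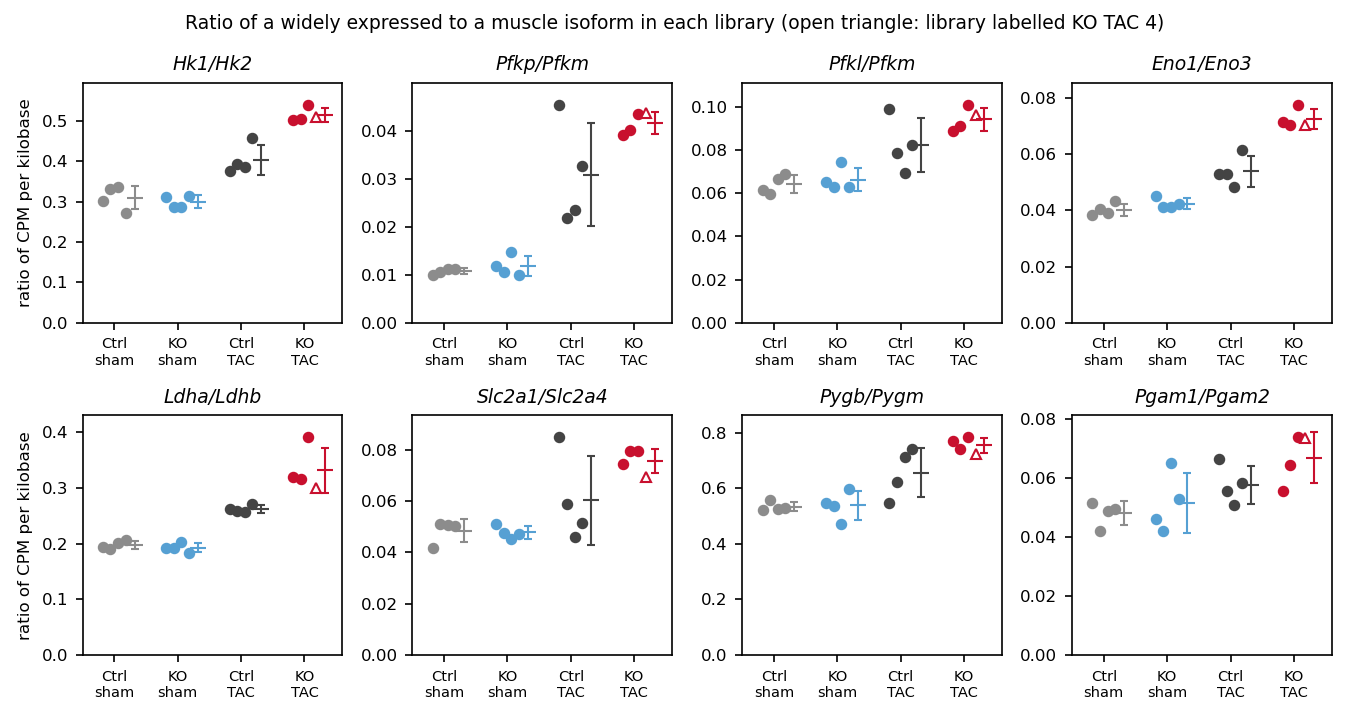
Ratio of the first-named gene to the second, the main muscle or heart form, for 8 gene pairs in each library. Each level is in CPM per kilobase, by group with mean and SD. The open triangle is the library labelled KO TAC 4. The ratios of Hk1 to Hk2, Eno1 to Eno3 and Ldha to Ldhb are higher in both TAC groups than in sham and highest in KO TAC.

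Cell type markers moved in the same comparisons. The summed level of 8 cardiomyocyte markers was 41206 to 45011 CPM in Ctrl sham, 42317 to 43922 in KO sham, 38886 to 42368 in Ctrl TAC and 36214 to 37006 in KO TAC, a log2 change of the means of -0.08 in Ctrl and -0.24 in KO. The 7 fibroblast markers summed to 557 to 668 CPM in Ctrl sham and 996 to 1345 in Ctrl TAC, and to 581 to 617 in KO sham and 1406 to 1592 in KO TAC. Of the 7 macrophage markers, 3 rose in Ctrl and 6 in KO, and no endothelial marker of 6 passed in either. Of the 9 genes that fell in both genotypes, divided by the cardiomyocyte sum of the same library (a ratio chosen after the values were seen), Slc2a4, Pfkm, Eno3, Ldhb, Pdk2 and Pfkfb1 were still lower in every TAC than in every sham library in both genotypes, whereas Mpc2 and Pygm overlapped in Ctrl and Pkm in both genotypes, with a log2 difference of 0.01 in KO. On this scale the log2 differences were -0.33 and -0.38 for Slc2a4 and -0.20 and -0.30 for Pfkm. The Hk2 groups overlapped in both genotypes. Leaving out the library labelled KO TAC 4, the same genes were apart in KO on this scale, and the cardiomyocyte sum stood -0.25 from KO sham.

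The promoters of the 3 enzyme pairs are shown because the forms moved apart. RefSeq (GRCm38.p6) listed start sites for 37 of the 38 genes. Each line below gives the 250 bases before a listed start, with capitals marking ACGTG on either strand, the core letters of the hypoxia response element to which hypoxia-inducible factors bind. The windows are chr10:62379909-62380158 (minus strand) for Hk1, chr6:82774455-82774704 (minus strand) for Hk2, chr4:150236458-150236707 (plus strand) for Eno1, chr11:70656926-70657175 (plus strand) for Eno3, chr7:46845554-46845803 (plus strand) for Ldha and chr6:142507958-142508207 (minus strand) for Ldhb, none of them over an annotated exon.
Hk1: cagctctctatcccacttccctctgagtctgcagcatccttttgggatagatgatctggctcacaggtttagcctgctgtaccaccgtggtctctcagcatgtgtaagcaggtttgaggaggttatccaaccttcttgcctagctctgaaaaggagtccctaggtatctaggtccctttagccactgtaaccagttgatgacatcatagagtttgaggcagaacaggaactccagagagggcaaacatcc
Hk2: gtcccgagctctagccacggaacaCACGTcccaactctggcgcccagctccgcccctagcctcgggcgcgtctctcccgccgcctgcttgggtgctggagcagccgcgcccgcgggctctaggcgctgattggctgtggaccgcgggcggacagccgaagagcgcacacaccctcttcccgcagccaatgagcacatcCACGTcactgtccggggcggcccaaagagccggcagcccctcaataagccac
Eno1: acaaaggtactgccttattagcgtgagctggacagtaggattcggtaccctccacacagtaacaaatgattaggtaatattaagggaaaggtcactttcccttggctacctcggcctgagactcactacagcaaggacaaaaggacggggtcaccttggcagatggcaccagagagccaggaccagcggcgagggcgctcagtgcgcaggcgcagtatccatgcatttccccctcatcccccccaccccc
Eno3: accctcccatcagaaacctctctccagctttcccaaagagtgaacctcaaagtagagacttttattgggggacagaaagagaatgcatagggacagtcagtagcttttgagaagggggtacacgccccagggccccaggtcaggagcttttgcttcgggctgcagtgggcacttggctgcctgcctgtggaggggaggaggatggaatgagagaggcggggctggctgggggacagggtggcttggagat
Ldha: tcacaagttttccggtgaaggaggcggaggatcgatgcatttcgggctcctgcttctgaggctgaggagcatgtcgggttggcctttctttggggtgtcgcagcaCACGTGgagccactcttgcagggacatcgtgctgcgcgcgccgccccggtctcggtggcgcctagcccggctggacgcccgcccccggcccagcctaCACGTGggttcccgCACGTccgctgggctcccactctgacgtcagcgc
Ldhb: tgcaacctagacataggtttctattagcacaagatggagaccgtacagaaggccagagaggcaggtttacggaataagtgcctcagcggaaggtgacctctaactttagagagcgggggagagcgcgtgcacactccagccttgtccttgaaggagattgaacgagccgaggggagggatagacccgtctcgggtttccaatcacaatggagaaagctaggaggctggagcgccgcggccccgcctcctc

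The motif occurred 5 times in the Ldha window, counting both strands, where a palindromic CACGTG counts on each, and 2 times in the Hk2 window, and not in the other 4. A gene can have more than 1 listed start, of which 1 is shown here, and which start the heart uses was not tested. The motif was in 19 of the 59 windows of the 37 genes (32.2%), beside 16.6% of the 32851 windows of all genes. CACGTG, the E-box, was in 5 of the 59 (8.47%), beside 6.02% of all. The windows of 1 gene overlap in part, and a match is a description of the letters only.

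The second question was whether loss of CARDINAL changed these genes. In the unloaded hearts none of the 38 passed (edgeR quasi-likelihood test), nor by DESeq2, beside 0 of all genes tested by edgeR and 3 by DESeq2. CARDINAL (Gm12295) itself, at a log2 difference of -2.92, did not pass by edgeR (adjusted p = 1), although every KO sham library lay below every Ctrl sham library. Its spread was estimated over all 16 libraries, the library labelled KO TAC 4 (4.55 CPM) included. Over all genes, KO sham against Ctrl sham gave 1 call without that library and 2 in a fit of the 8 sham libraries alone. Of the 38, 1 gene, Pfkfb3, had an unadjusted p under 0.05, with a log2 difference between KO sham and Ctrl sham of -0.46 ± 0.14 (adjusted p = 1). The median of the 38 differences was -0.0087 on the log2 scale. In the loaded hearts 5 genes passed between KO TAC and Ctrl TAC, Eno1 higher and Slc2a4, Pfkm, Ldhb and Pygm lower, or 13.2% of the 38 beside 2.68% of all genes tested (1.36% higher and 1.32% lower). The median size of this difference without its sign was nearly the same for the 38 genes (0.130) and for all genes (0.128). The groups did not overlap for 9 genes (23.7%), beside 10.5% of all genes, the others being Eno3, Mpc2, Pdk3 and Tkt. With the 3 other KO TAC libraries alone, 12 genes (31.6%) did not overlap, beside 15.6% of all genes.

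The size of these differences was modest. From the library values above, Pfkm ranged from 619.7 to 652 CPM in KO TAC and from 711 to 854 CPM in Ctrl TAC, a log2 difference of -0.28 ± 0.06 (SE, adjusted p = 0.0196). Pygm differed by -0.27 ± 0.05 (SE, adjusted p = 0.0154), Ldhb by -0.24 ± 0.05 (SE, adjusted p = 0.0242) and Slc2a4 by -0.23 ± 0.06 (SE, adjusted p = 0.0378). Eno1, the only member to pass in the other direction, differed by 0.24 ± 0.05 (SE, adjusted p = 0.0325). In each of the 5 genes all KO TAC libraries lay on 1 side of all Ctrl TAC libraries, the library labelled KO TAC 4 included.

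Without the library labelled KO TAC 4, Pfkm was -0.26 (adjusted p = 0.0407), Pygm -0.25 (adjusted p = 0.0321), Ldhb -0.24 (adjusted p = 0.0402), Eno1 0.26 (adjusted p = 0.0352) and Slc2a4 -0.24 (adjusted p = 0.0558), so that 4 of the 5 still passed. Tkt passed in this fit at 0.24 (adjusted p = 0.043). Without Ctrl TAC 2 none of the 38 passed, and the same 5 differences were -0.22 (adjusted p = 0.0731) for Pfkm, -0.22 (adjusted p = 0.0568) for Pygm, -0.23 (adjusted p = 0.0778) for Ldhb, 0.23 (adjusted p = 0.0912) for Eno1 and -0.19 (adjusted p = 0.133) for Slc2a4. None passed with a term for the animal numbers starting with 25 either, where the differences were -0.27 for Pfkm, -0.30 for Pygm, -0.24 for Ldhb, 0.20 for Eno1 and -0.19 for Slc2a4. Leaving out KO TAC 3 left Pygm alone, leaving out KO TAC 2 left Pygm and Ldhb, and leaving out Ctrl TAC 3 left Pygm and Pfkm. The direction of the 5 genes held in each of these fits.

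Within the animals whose numbers start with 25 (3 Ctrl TAC libraries and the library labelled KO TAC 4), the log2 ratio of mean CPM, KO TAC over Ctrl TAC, was -0.33 for Pfkm, -0.31 for Pygm, -0.21 for Ldhb, -0.24 for Slc2a4 and 0.19 for Eno1. Within the animals whose numbers start with 34 (Ctrl TAC 1 and KO TAC 1, 2 and 3) it was -0.22 for Pfkm, -0.28 for Pygm, -0.26 for Ldhb, -0.15 for Slc2a4 and 0.20 for Eno1. Each series held a single library of 1 genotype, so neither allows a test. The only library of KO TAC in the first series is also the one whose CARDINAL level goes against its label.

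**Figure D4:**
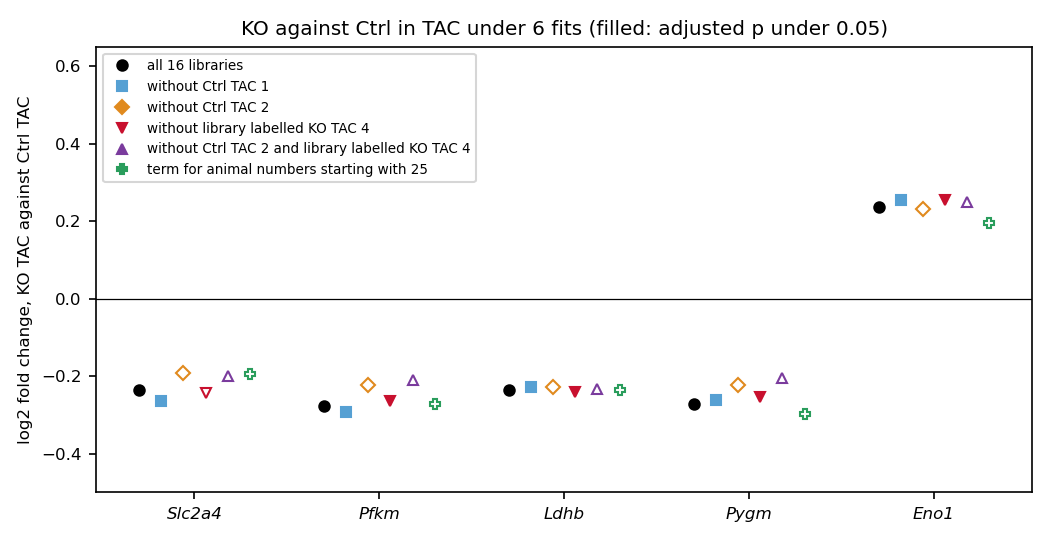
Log2 fold change of KO TAC against Ctrl TAC for the 5 genes that passed, under 6 fits, filled where the adjusted p was under 0.05. The points of each gene stay on 1 side of 0, and all are open without Ctrl TAC 2 and with the term for animal numbers starting with 25.

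Between KO TAC and Ctrl TAC the cardiomyocyte marker sums did not overlap either, with a log2 ratio of the means of -0.14, although none of the 8 markers passed alone, and the fibroblast sums stood 0.38 higher on the same scale, with 1 of 7 markers passing (Col1a2). With the library labelled KO TAC 4 left out, these sums differed by -0.14 and 0.40, again with no overlap, and no marker of either list passed. Divided by the cardiomyocyte sum, Pfkm (-0.14) remained apart between the TAC groups, and Slc2a4 (-0.10), Ldhb (-0.10) and Pygm (-0.14) overlapped. The same held without the library labelled KO TAC 4 (Pfkm -0.12, again apart). Eno1 read 0.37 on this scale, and 0.39 without that library. Its separation was fixed in advance, because Eno1 was higher and the divisor lower in every KO TAC library. The part of the marker changes in these results was not tested.

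Whether the response to pressure overload itself differed by genotype was asked with the interaction term. None of the 38 passed (edgeR quasi-likelihood test), beside 0.0109% of all genes. An unadjusted p under 0.05 was found for 12 of the 38, and the share of all genes at that threshold is not given here. That count is therefore not read as a trait of these genes. By DESeq2, 1 gene passed, Ldhb, beside 132 of all genes. The fitted difference of the changes, KO minus Ctrl, was -0.27 ± 0.07 (SE, adjusted p = 0.228) for Ldhb, 0.69 ± 0.20 (SE, adjusted p = 0.24) for Pfkfb3, 0.28 ± 0.08 (SE, adjusted p = 0.241) for Tkt and -0.25 ± 0.08 (SE, adjusted p = 0.267) for Pfkm. With the library labelled KO TAC 4 left out, they were -0.27 (adjusted p = 0.23) for Ldhb, 0.79 (adjusted p = 0.141) for Pfkfb3, 0.32 (adjusted p = 0.163) for Tkt and -0.24 (adjusted p = 0.311) for Pfkm. The larger changes in KO listed above are therefore not shown to differ from those in Ctrl.

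Of 100 further genes of glucose use listed beside the 38, 89 passed the filter. Between TAC and sham 32 of the 89 passed in Ctrl (10 higher, 22 lower), or 36% beside 20.0% of all genes tested, and 46 in KO (11 higher, 35 lower), or 51.7% beside 34.3%. Without the scaling factor the split was 15 higher and 16 lower in Ctrl and 25 higher and 19 lower in KO. With the term for animal numbers starting with 25, 21 passed in Ctrl, and 42 passed in KO when the library labelled KO TAC 4 was omitted. Among the highest were Ppp1r3c, a glycogen-targeting subunit of protein phosphatase, at 0.81 and 0.89 (adjusted p 0.000625 and 0.000122), and Slc16a3, the lactate exporter of the monocarboxylate transporter family, at 0.71 and 1.5 (adjusted p 0.00663 and 2.46e-06). Among the lowest was Phkg1, the catalytic subunit of muscle phosphorylase kinase, at -1.46 and -1.73 (adjusted p 6.13e-06 and 3.5e-07). Also among the lowest were Pdp2, a pyruvate dehydrogenase phosphatase, in Ctrl (-0.87 ± 0.11 (SE, adjusted p = 4.1e-05)) and Fbp2, muscle fructose bisphosphatase, in KO (-1.35 ± 0.22 (SE, adjusted p = 0.000215)).

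At pyruvate entry 6 of 11 passed in Ctrl (1 higher, 5 lower), or 54.5% beside the same 20.0%, and 8 of 11 in KO (1 higher, 7 lower), or 72.7% beside 34.3%. The gene higher in both was Slc16a3, a lactate exporter listed with this step and not a gene of entry into the mitochondrion. Between KO TAC and Ctrl TAC 6 of the 89 passed (6.74%, beside 2.68% of all genes), Slc16a3 higher and the other 5 lower. Slc16a3 read 1.8, 1.52, 2.01 and 1.86 CPM in Ctrl sham, 1.93, 1.49, 1.38 and 2.32 in KO sham, 2.76, 3.00, 2.36 and 3.61 in Ctrl TAC and 4.65, 6.04, 5.28 and 4.26 in KO TAC, so that the KO TAC libraries were highest, with a log2 difference of 0.78 ± 0.16 (SE, adjusted p = 0.02). Ldhd, which oxidises D-lactate, differed by -0.44 ± 0.06 (SE, adjusted p = 0.00563). Pdhb and Dld, subunits of the pyruvate dehydrogenase complex, and Sord, sorbitol dehydrogenase, differed by -0.19, -0.19 and -0.26 (adjusted p 0.038, 0.0338 and 0.0338). Of these 6 genes, 5 still passed when the library labelled KO TAC 4 was omitted, Slc16a3 at 0.86 (adjusted p = 0.0212), with Pdhb lost (-0.18, adjusted p = 0.0793). Ldhd alone passed without Ctrl TAC 2 (-0.40, adjusted p = 0.0158) and with the term for animal numbers starting with 25 (-0.46, adjusted p = 0.0446), fits in which Slc16a3 was 0.79 (adjusted p = 0.0643) and 0.72 (adjusted p = 0.129). Of the 89, 1 gene passed without Ctrl TAC 3, KO TAC 2 or KO TAC 3, 2 without KO TAC 1, and 4 without Ctrl TAC 1. Over all genes this comparison called 489, and 63 and 12 in those fits. None of the 89 passed between KO sham and Ctrl sham or in the interaction (edgeR quasi-likelihood test). At an unadjusted p under 0.05 there were 4 and 14, again without a share of all genes beside them.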

How the data were processed

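Total RNA from the heart apex was poly(A)-selected and sequenced in pairs. The deposited table holds whole-number counts of reads per Ensembl gene for 16 libraries, made by the authors and not normalised. The submitters' processing notes name GRCm38, cutadapt 2.3, FastQC, HISAT2 2.1.0 and edgeR 3.26.1. The counting program, its annotation and its use of strand are not given in the sources used here. Every column matched 1 sample by its label, and 99.5% of the identifiers were found in GENCODE M21.

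Counts were filtered with filterByExpr, scaled by TMM and fitted in 1 model of 4 group means with edgeR 4.0.16 (glmQLFit with robust settings, glmQLFTest, R 4.3.3). The 5 contrasts were TAC against sham in each genotype, KO against Ctrl in sham and in TAC, and the interaction. A gene was called at a Benjamini-Hochberg adjusted p under 0.05 over all 18275 genes, and SE are on the log2 scale. Levels are CPM on TMM library sizes, and levels per kilobase use the union of a gene's M21 exons. At 53169437 to 79404714 counts a library, each member held at least 216 counts in every library except Pdk3 (62 to 189) and Aldoc (6 to 37, and 201 in Ctrl TAC 2), where counting error is larger. The fit was tested on simulated data.

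The members and all lists were chosen with earlier results of these data known. Every member is accounted for. Values in every library are given for members called between KO TAC and Ctrl TAC or in the interaction, for the called member of each step with the largest rise and fall in each TAC contrast, and for Slc2a1, Slc2a4, Hk2, Gapdh and Pdk4. Further pathway genes are named if called between KO TAC and Ctrl TAC or in the interaction, or among the 3 largest rises and falls with TAC, except that some genes this rule names are not reported here. Marker lists covered cardiomyocytes, fibroblasts, macrophages, endothelium, smooth muscle and pericytes (3 of 5 higher with TAC in each genotype), adipocytes (0 called), red blood cells (0 called) and fast skeletal muscle (1 of 5 higher in Ctrl TAC). Alternatives were other scaling (RLE, none), other filters, a threshold of 0.01, terms for animal-number series, 8-library fits, leaving out libraries, and DESeq2 1.42.0 (Wald test).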

Additional observations from a re-analysis of the deposited data

Results flagged for a closer look

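Within a group, a library was set apart when its gap to the nearest other, divided by the group's range, passed Dixon's 95% critical value for a group of 4. This held for 14 of the 152 combinations of gene and group, where chance alone flags about 1 in 20. The libraries above the other 3 of their group were Pfkm in Ctrl sham 1 (1001 CPM against 913 to 922), Mpc1 in KO sham 1 (288 CPM against 281 to 282), Tkt in KO sham 1 (16.7 CPM against 15.7 to 15.8), Aldoa in Ctrl TAC 1 (2093 CPM against 1764 to 1784), Aldoc in Ctrl TAC 2 (3.00 CPM against 0.122 to 0.376) and Pdk4 in KO TAC 1 (169 CPM against 103 to 109). Below the other 3 were Pdk2 in Ctrl sham 3 (326 CPM against 351 to 352), Pfkm in KO sham 3 (846 CPM against 944 to 961), Pgam2 in KO sham 4 (344 CPM against 392 to 394), Pygb in Ctrl TAC 1 (764 CPM against 927 to 949.8) and Ldhb in Ctrl TAC 4 (797 CPM against 842 to 844). The library labelled KO TAC 4 was below the other 3 for Pfkfb3 (9.57 CPM against 12.6 to 13.2), Pkm (836 CPM against 874 to 879.9) and Tkt (15.7 CPM against 17.4 to 17.8).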

How the results depend on the processing

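In Ctrl, TAC against sham called 17 members, 9 at an adjusted p under 0.01 and 11 to 18 when libraries were left out in turn, 11 being the value without Ctrl TAC 4. Slc2a4, Pfkm, Pfkp, Pfkfb1, Pgam1, Pgam2, Eno3, Ldhb and Pdk2 were called in all 25 alternatives at the 0.05 threshold. When each of the 16 libraries was left out in turn, the call was kept in 8 for Gapdh, 12 for Pkm, 6 for Mpc2, 13 for Pgd, 10 for Tkt and 7 for Ugp2. In KO the 23 calls became 18 to 24 when libraries were left out, and the call was kept in 11 of the 16 fits for Pfkfb3, 12 for Pgk1, 10 for Pgam1, 11 for Ldha and 4 for Mpc1. Between KO TAC and Ctrl TAC the 5 calls became 0 at 0.01, 0 with the term for numbers starting with 25, 0 with the 8 libraries alone, 0 without Ctrl TAC 2 and the library labelled KO TAC 4 together, and 11 (3 higher, 8 lower) by DESeq2. The calls over all genes moved as well, from 489 to 12 with that term, 154 with the 8 libraries, 63 without Ctrl TAC 2, 109 without both libraries and 1183 by DESeq2. With 1 library left out, the member calls between KO TAC and Ctrl TAC ranged from 0, without Ctrl TAC 2, to 9, without Ctrl TAC 4. The count was 8 without Ctrl TAC 1, 2 without Ctrl TAC 3, 2 without KO TAC 2, 1 without KO TAC 3 and 5 without the library labelled KO TAC 4. The interaction gave 0 calls by edgeR and 1 by DESeq2, beside 2 and 132 over all genes. No called member changed direction in any alternative. Apart from the fits without a library, the cause of these changes was not tested. No paired analysis was possible because each animal has its own number and the replicate numbers, given in order of deposit, pair nothing. With 4 animals a group, the standard errors of the TAC changes, 0.04 to 0.88 on the log2 scale, limit what could be called, most of all for Aldoc at under 1 CPM in 15 of 16 libraries.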

Other observations

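Ctrl TAC 1 stood at an end of its group more often than any other library of the series: it was the highest of the 4 Ctrl TAC libraries for 24 of the 38 genes and the lowest for 5. It had the highest level of the group for Pfkp, Ugp2, Slc2a1 and Pgam1 and the lowest for Pfkfb1, Pygb and Pdk4. It was also the Ctrl TAC library with the highest CARDINAL level (8.02 CPM) and the only one whose animal number does not start with 25. The library labelled KO TAC 4 was the lowest of its group for 19 of the 38 genes and the highest for 4.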
